A study of Mus musculus with 28 samples.

Results

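Cyp3a genes encode cytochrome P450 enzymes that oxidise steroids, bile acids and many drugs in the endoplasmic reticulum of liver cells. Array probes of 6 of these genes were read: Cyp3a11, Cyp3a13, Cyp3a16, Cyp3a25, Cyp3a44 and Cyp3a59. A probe was taken where the RefSeq accession in the scanner files belongs to one of these genes, which gave 9 of 55681 non-control probes and 6 of 20145 gene symbols. Cyp3a11, Cyp3a13 and Cyp3a59 had 2 probes each and the others 1, and every probe is given apart. The probe sequences were not used here, so how far a probe also binds RNA of a related Cyp3a gene was not tested.

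Liver total RNA of 28 males came from 3 feeding experiments with phenobarbital, a barbiturate, and was hybridised to 1-colour arrays. CD-1 mice, an outbred stock, received 1500 ppm in the diet or a diet with 0 ppm for 7 days (n = 4 each). The hCAR/hPXR mice, labelled as humanised for the receptors CAR and PXR, received 1000 ppm or 0 ppm for 7 days (n = 7 each), and the labels do not say how the human genes were introduced or where they are expressed. C3H/HeNCrlCrlj mice, called C3H below, received 500 ppm or 0 ppm for 27 weeks (n = 3 each). Both C3H groups, controls included, had first been injected intraperitoneally with 90 mg/kg of the liver carcinogen diethylnitrosamine, and the labels do not say whether the tissue was tumour or surrounding liver. Strain, dose and slide differ between all 3 experiments, and duration and diethylnitrosamine also set the C3H experiment apart, so these cannot be told apart in any comparison across them.

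PXR, the product of Nr1i2, is a nuclear receptor that binds many foreign chemicals, pairs with the retinoid X receptor and induces Cyp3a genes in the liver. CAR, the product of Nr1i3, is the related receptor through which phenobarbital acts, and Cyp2b10 is the standard marker gene of its activation in mice. Some Cyp3a genes of the mouse are also set by age and by sex, sex acting through the pattern of growth hormone release.

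A level below is the log2 processed signal minus the 75th percentile of its array, so a level of 0 is that percentile. A change is the difference of group means on that log2 scale, with the standard error (SE) of the limma fit and a p-value adjusted over all tested probes. A probe was called where the adjusted p was under 0.05. Between 46.2% and 70.6% of probes were well above background on the CD-1 arrays, 46.6% to 58.6% on the hCAR/hPXR arrays and 41.3% to 46.0% on the C3H arrays. The scanner software placed the replicate-spot variation out of its range on 8 of 8 CD-1 arrays, 3 of 14 hCAR/hPXR arrays and 0 of 6 C3H arrays. The 99th percentile of the signal lay between 3932 and 6339 in CD-1, against 28948 to 45700 in hCAR/hPXR and 21118 to 30286 in C3H mice.

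The receptors and the exposure marker were read first. Cyp2b10 rose in all 3 experiments, by 6.66 (101-fold) in CD-1, 4.49 (22.4-fold) in hCAR/hPXR and 5.74 (53.3-fold) in C3H mice, with limma adjusted p of 2.76e-05, 2.5e-09 and 0.000332. The mouse Nr1i2 probe averaged -4.21 ± 0.40 in phenobarbital-fed and -4.55 ± 0.74 in control hCAR/hPXR mice (SD, n = 7 each), well above background on 0 and 1 of the 7 arrays. The same probe averaged 0.81 and 0.88 in CD-1 and 3.61 and 2.98 in C3H mice, phenobarbital and control. Of the 2 Nr1i3 probes, A_55_P2035824 averaged -5.11 and -5.50 in phenobarbital-fed and control hCAR/hPXR mice and was well above background on 1 and 0 arrays. The other, A_51_P358256, was well above background on all arrays of that strain, at -2.01 and -1.02. In hCAR/hPXR livers the Nr1i2 probe and 1 of the 2 Nr1i3 probes thus read near background, and the human receptors were not measured with these probes.

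All 9 Cyp3a probes passed the filter on dim signals in each experiment, Cyp3a44 in CD-1 mice only through its phenobarbital group. In CD-1 mice 2 of the 9 rose and 0 fell, beside 7.88% of all tested probes called, 1.81% higher and 6.07% lower. One of those 2, Cyp3a44, was not well above background in any CD-1 control, and it was not called with normexp background correction (0.37, limma adjusted p = 0.0606). For hCAR/hPXR mice these numbers were 7 and 0, beside 56.0% called, 33.9% higher and 22.1% lower. C3H mice had 0 higher and 1 lower, beside 14.1% called, 7.21% higher and 6.87% lower. At an unadjusted p under 0.05 the numbers higher were 5 (CD-1), 7 (hCAR/hPXR) and 0 (C3H), and those lower 0, 0 and 1. The median change of the 9 probes was 0.75 (CD-1), 0.88 (hCAR/hPXR) and -0.10 (C3H), against -0.01, 0.13 and -0.05 over all tested probes. The groups did not overlap for 2, 4 and 3 of the 9 probes, beside 19.2%, 19.4% and 40.8% of all tested probes. The called genes were Cyp3a44 and Cyp3a16 in CD-1 mice, all genes except Cyp3a16 in hCAR/hPXR mice, and Cyp3a25, which fell, in C3H mice. In these bulk samples fewer cells of a type and less RNA per cell cannot be told apart.

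**Figure D1:**
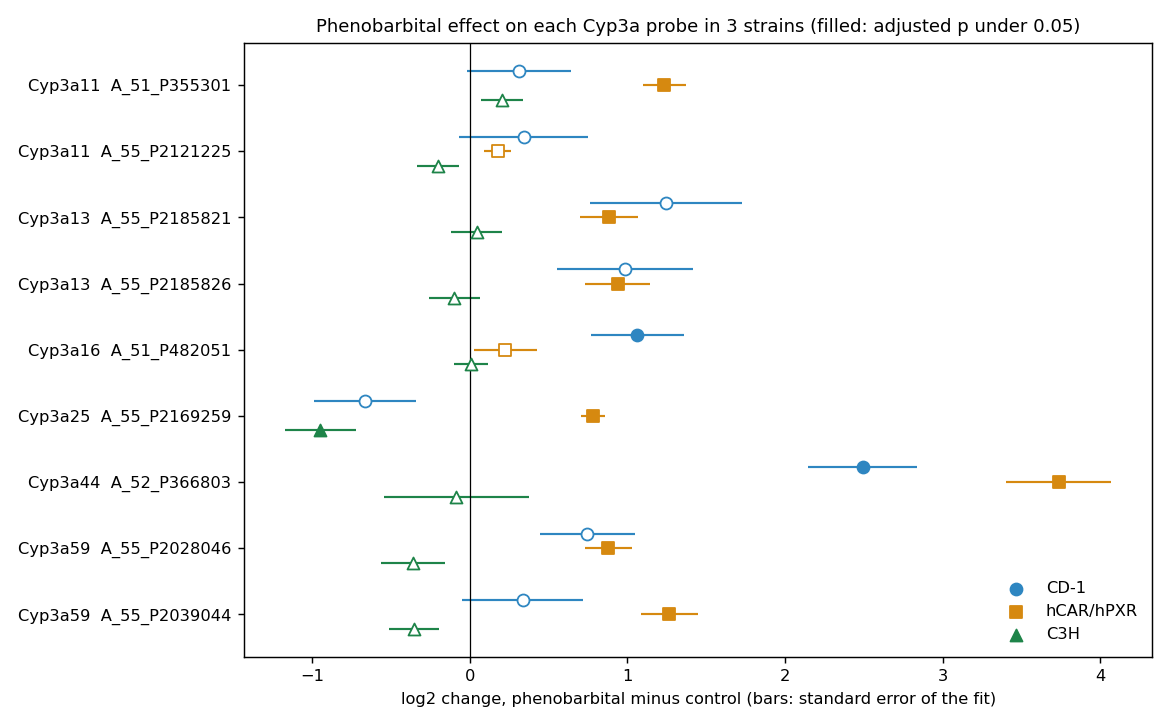
Change of each of the 9 Cyp3a probes with phenobarbital, as log2 difference from the controls of the same strain (x axis), with the standard error as bars; filled symbols have an adjusted p under 0.05. Cyp3a44 lies farthest to the right in hCAR/hPXR mice (3.74) and near 0 in C3H mice (-0.09), its CD-1 position (2.49) rests on controls not well above background, and Cyp3a25 lies right of 0 in hCAR/hPXR mice and left of it in the other strains.

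All 6 genes lie on chromosome 5 (GRCm38.p6). Cyp3a16 (chr5:145436309-145469740), Cyp3a44 (chr5:145773983-145805891), Cyp3a11 (chr5:145854607-145879854), Cyp3a25 (chr5:145977192-146009644) and Cyp3a59 (chr5:146079208-146114978) form a cluster, and Cyp3a13 (chr5:137892933-137925610) lies apart from it. The windows before the starts of 2 pairs are nearly the same: over 250 bases, Cyp3a44 and Cyp3a16 share 236 of 246 aligned bases (95.9%) and Cyp3a25 and Cyp3a59 share 239 of 250 (95.6%), while all other pairs of the 6 share 72.0% to 83.7%. Because each pair offers nearly equal sequence beside separately measured levels, their windows are printed with that of Cyp3a11, the main inducible form of the adult mouse liver. They are RefSeq sequences on the strand of the gene, 5′ to 3′, from 250 to 51 bases before the start. This start is the one from which the promoter sequences were cut. For all printed genes except Cyp3a11 it lies inside the gene coordinates given above, so the distances do not count from those coordinates. Capitals mark the nuclear receptor half-sites AGGTCA and AGTTCA, searched on both strands.
Cyp3a44, chr5:145805925-145806124, minus strand: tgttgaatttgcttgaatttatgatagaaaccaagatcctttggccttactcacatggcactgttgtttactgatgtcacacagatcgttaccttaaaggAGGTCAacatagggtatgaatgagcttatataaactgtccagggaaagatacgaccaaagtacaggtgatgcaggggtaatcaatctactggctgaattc
Cyp3a16, chr5:145469774-145469973, minus strand: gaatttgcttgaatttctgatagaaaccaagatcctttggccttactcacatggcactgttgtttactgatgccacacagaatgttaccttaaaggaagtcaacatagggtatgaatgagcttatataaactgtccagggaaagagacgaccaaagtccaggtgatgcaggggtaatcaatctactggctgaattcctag
Cyp3a11, chr5:145879905-145880104, minus strand: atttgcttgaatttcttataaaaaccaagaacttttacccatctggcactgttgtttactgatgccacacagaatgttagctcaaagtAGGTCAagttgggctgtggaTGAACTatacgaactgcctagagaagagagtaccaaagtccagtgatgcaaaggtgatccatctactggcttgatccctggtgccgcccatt
Cyp3a25, chr5:146009668-146009867, minus strand: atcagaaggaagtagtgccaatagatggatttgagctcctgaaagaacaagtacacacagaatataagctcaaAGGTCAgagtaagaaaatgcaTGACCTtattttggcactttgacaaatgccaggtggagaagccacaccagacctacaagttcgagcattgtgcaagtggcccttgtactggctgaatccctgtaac
Cyp3a59, chr5:146079008-146079207, plus strand: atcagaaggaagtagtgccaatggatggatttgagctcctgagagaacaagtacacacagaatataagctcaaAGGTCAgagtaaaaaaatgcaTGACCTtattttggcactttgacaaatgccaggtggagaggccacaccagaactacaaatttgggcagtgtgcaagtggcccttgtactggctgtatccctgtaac

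Cyp3a44 holds 1 half-site in this window, AGGTCA at 150 to 145 bases before the start. Cyp3a16 has the substitution G102A at the same place, counted from 1 at the 5′ end of the printed Cyp3a44 window, and holds no half-site. Cyp3a11 holds AGGTCA at 162 to 157 bases and AGTTCA on the opposite strand at 142 to 137 bases before the start. Cyp3a25 and Cyp3a59 hold the same 2 half-sites, AGGTCA at 177 to 172 and, on the opposite strand, at 156 to 151 bases. The 250 bases before the Cyp3a13 start hold none, and they are not printed because they lie within the annotated gene. Over 32851 promoters, 14.0% hold AGGTCA and 11.8% hold AGTTCA in the same 250 bases. The arrangements used by PXR and CAR, 2 such half-sites as an everted repeat 6 bases apart or as direct repeats 3 or 4 bases apart, were not found in the 250 bases of any of the 6 genes, and 3, 4 and 8 of the 32851 promoters hold them. Only exact letters within these 250 bases were searched. So few promoters hold such a match that its absence does not show that these genes lack PXR or CAR sites. A match of letters is a description and no binding was measured.

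Cyp3a44, a form known for its predominance in female mouse liver, had the largest change of the 9 probes in hCAR/hPXR mice, and in CD-1 mice its change has only a bound. Its levels were -0.80, -1.80, -2.24 and -2.20 in the 4 phenobarbital-fed CD-1 mice, against -3.92, -4.56, -4.50 and -4.03 in the controls. Every treated animal lay above every control, and the controls were not well above background on any array, with processed signals of 2.48 to 4.21 against 15.1 to 74.6 in treated mice. The fitted change was 2.49 (SE 0.35, limma adjusted p = 0.0011). As the control side is only a bound, Cyp3a44 was at least 1.97-fold higher with phenobarbital, the bound being computed with each control raised to the lowest value marked well above background on its array.

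Cyp3a44 in hCAR/hPXR mice had levels of -0.34, 1.11 and 2.07 (lowest, median and highest of 7) with phenobarbital, against -3.19, -2.84 and -2.22 in controls. The groups were separated by more than 1 log2 unit, and the probe was well above background in every animal of this strain. The rise was 3.74 (SE 0.33, 13.3-fold, limma adjusted p = 2.37e-06). The C3H levels were -1.28, -1.68 and 0.04 with phenobarbital and -1.23, -1.01 and -0.42 in controls. These overlapped, with a change of -0.09 (SE 0.46, limma adjusted p = 0.915).

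The fitted Cyp3a44 effect was smaller in C3H mice than in CD-1 mice by 2.58 (difference -2.58, SE 0.66, limma adjusted p = 0.0113). It was smaller than in hCAR/hPXR mice by 3.82 (difference -3.82, SE 0.59, adjusted p = 0.000122). With normexp the first of these was -0.36 (adjusted p = 0.434). CD-1 controls were not well above background on any array, so the CD-1 effect is only a bound. The differences of the C3H and hCAR/hPXR effects from it therefore have no usable size or p-value. The fitted hCAR/hPXR effect minus the CD-1 effect was 1.24 (SE 0.55, limma adjusted p = 0.0918). It passed the threshold with normexp (1.40, adjusted p = 0.000301) and without CD-1 phenobarbital animal 1 (1.56), hCAR/hPXR phenobarbital animal 1 (1.45) or hCAR/hPXR phenobarbital animal 4 (1.42).

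Control C3H mice already had more Cyp3a44 signal than the other controls. The difference was 3.36 against CD-1 controls (SE 0.47, at least 3.60-fold) and 1.91 against hCAR/hPXR controls (SE 0.42, 3.77-fold, limma adjusted p = 0.000483), and both were called higher under every scaling run. In order of group means the levels were 0.93 ± 0.88 in hCAR/hPXR phenobarbital, -0.89 ± 0.42 in C3H control, -0.97 ± 0.90 in C3H phenobarbital, -1.76 ± 0.67 in CD-1 phenobarbital, -2.80 ± 0.40 in hCAR/hPXR control and -4.25 ± 0.32 in CD-1 control mice (SD). Only the first and the last did not overlap with their neighbour in this order. The order is that of this scaling.

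Cyp3a16, known as a fetal and neonatal form in mouse liver, shares most of its printed window with Cyp3a44 and showed another pattern. In CD-1 mice its levels were 4.07, 4.75, 5.05 and 4.80 with phenobarbital, against 3.73, 3.17, 3.91 and 3.59 in controls. The groups did not overlap, and the rise was 1.06 (SE 0.30, 2.09-fold, limma adjusted p = 0.0470). That call was lost when any of 6 of the 8 animals was left out (adjusted p 0.0795 to 0.122) and held without control 1 or phenobarbital animal 1.

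In the other strains the Cyp3a16 groups overlapped. The hCAR/hPXR levels were 6.63, 7.92 and 7.97 (lowest, median and highest of 7) with phenobarbital and 7.01, 7.47 and 7.76 in controls, a change of 0.23 (SE 0.20, limma adjusted p = 0.342). Without phenobarbital animal 2, the lowest of that group, the change was 0.40 (adjusted p = 0.0234). The C3H levels were 7.13, 7.11 and 7.11 with phenobarbital and 7.10, 7.07 and 7.16 in controls, a change of 0.01 (SE 0.11, limma adjusted p = 0.964), with a spread of 0.01 (SD) in the treated group.

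The Cyp3a16 effect was lower in hCAR/hPXR than in CD-1 mice by 0.84 (difference -0.84, SE 0.31, limma adjusted p = 0.0493). This call was lost in 15 of the 22 fits that left out 1 animal. It was also lost with the authors' value table (adjusted p = 0.0502) and with no filter on dim probes (0.0725). Between C3H and CD-1 mice the difference of effects was -1.05 (SE 0.38, limma adjusted p = 0.0633). It was called under 3 other settings, at -1.31 when scaled to probes detected on all arrays (adjusted p = 0.00974), -1.14 with quantile normalization (0.0242) and -1.04 with normexp (0.0255). The control levels differed far more than the effects. Cyp3a16 was higher by 3.82 in hCAR/hPXR controls (SE 0.22, 14.2-fold) and by 3.51 in C3H controls (SE 0.27, 11.4-fold) than in CD-1 controls, under every scaling run, and C3H minus hCAR/hPXR controls was -0.32 (adjusted p = 0.283). The group means were 7.65 ± 0.50 and 7.43 ± 0.26 in hCAR/hPXR phenobarbital and control, 7.12 ± 0.01 and 7.11 ± 0.04 in C3H, and 4.66 ± 0.42 and 3.60 ± 0.32 in CD-1 mice (SD). The first 4 overlapped in turn, and the CD-1 groups stood below them and apart from each other.

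**Figure D2:**
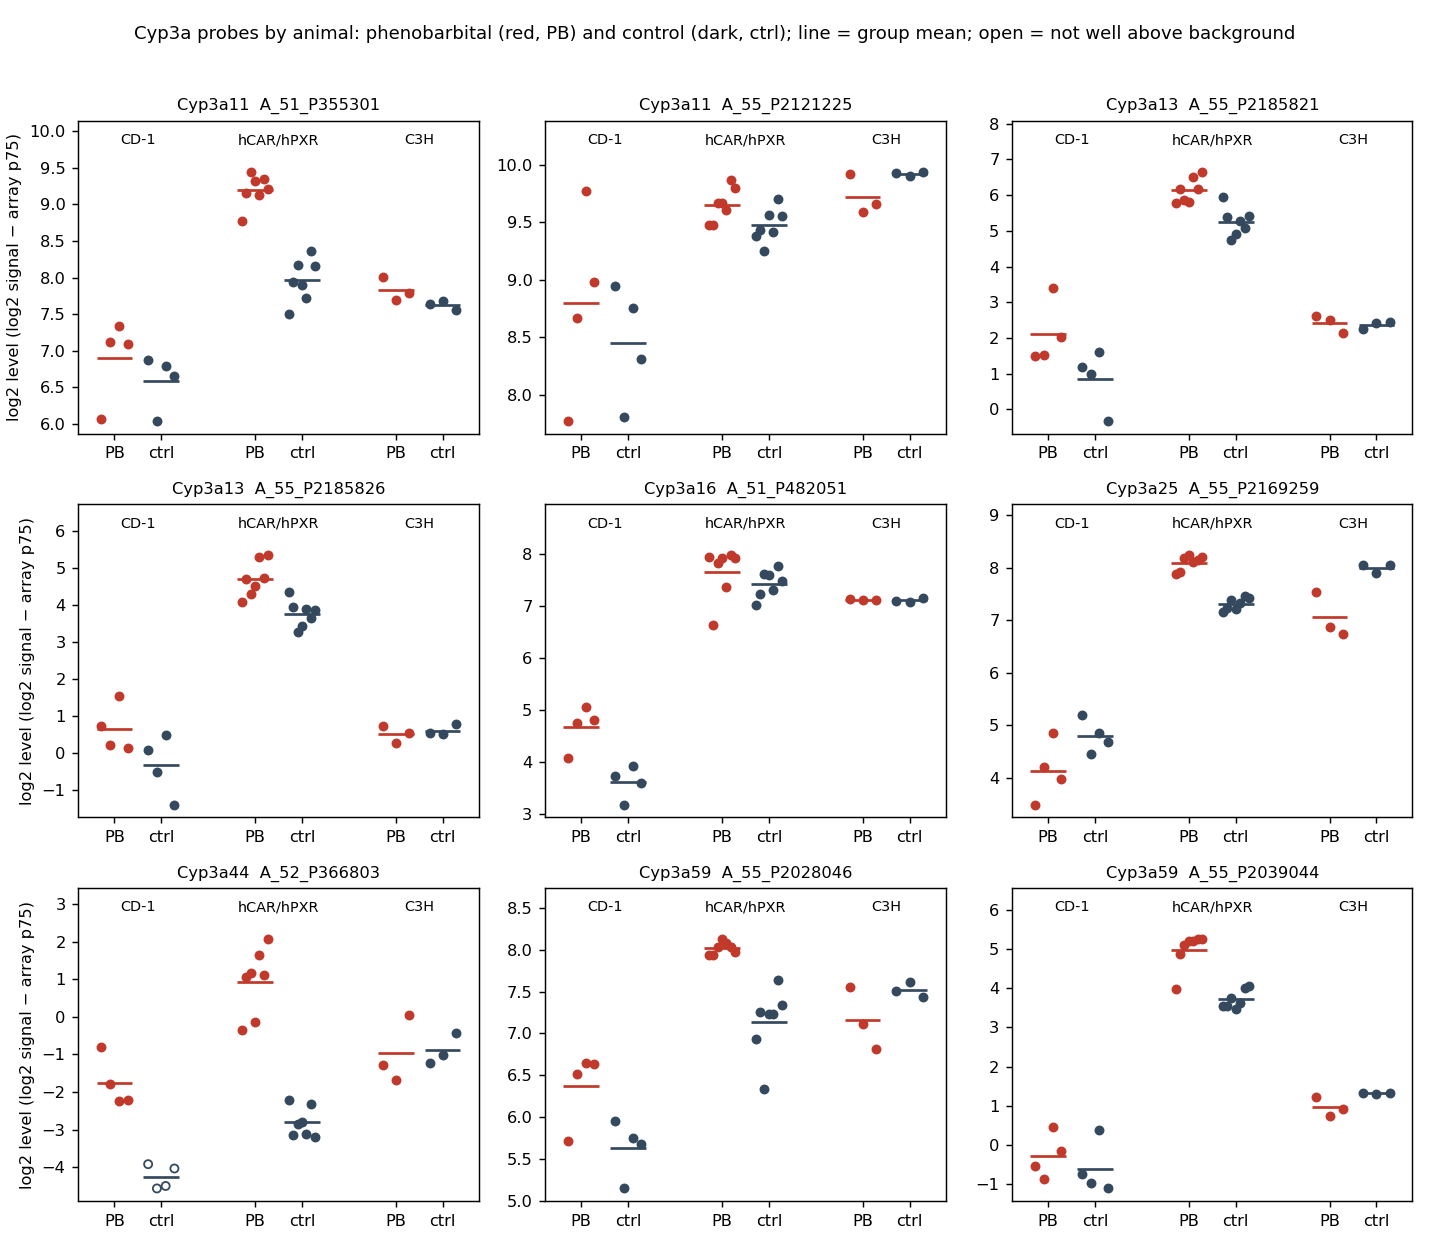
Level of each Cyp3a probe in every animal (y axis, log2 signal minus the 75th percentile of the array), phenobarbital left of control in each strain; lines are group means and open points were not well above background. Cyp3a44 separates the groups in CD-1 and hCAR/hPXR mice, and Cyp3a16 and Cyp3a25 lie lower in CD-1 mice than in the other strains.

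Cyp3a11 was measured by 2 probes that gave different answers in hCAR/hPXR mice. On A_51_P355301 the levels there were 8.77, 9.21 and 9.45 (lowest, median and highest of 7) with phenobarbital, against 7.50, 7.94 and 8.36 in controls. The groups did not overlap, and the rise was 1.23 (SE 0.13, 2.35-fold, limma adjusted p = 1.13e-05). On A_55_P2121225 they were 9.47, 9.67 and 9.87, against 9.25, 9.43 and 9.70. Here the groups overlapped, and the change was 0.18 (SE 0.09, limma adjusted p = 0.0906). It passed the threshold without control 6 (0.22, adjusted p = 0.0414) or phenobarbital animal 1 (0.21, adjusted p = 0.0499).

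The probes of Cyp3a11 were therefore set against each other on the same array. A_51_P355301 minus A_55_P2121225 averaged -0.45 (-0.70 to -0.22) in phenobarbital-fed and -1.51 (-1.89 to -1.08) in control hCAR/hPXR mice. The difference moved by 1.06, and no treated animal overlapped with a control (exact two-sided permutation test, p = 0.000583, the smallest that 3432 regroupings can give; 0.00524 after adjustment over 9 such tests). It moved by 0.90 to 1.22 under the other scalings and background correction. The regroupings treat all arrays of the strain as exchangeable, but only 1 treated animal shared the slide of the controls. The other 6 lay on another slide, so this p does not tell treatment from slide. The test was chosen after seeing the data. In C3H mice the difference moved by 0.41 without overlap (exact permutation p = 0.1, the smallest possible with 3 against 3), and in CD-1 mice by -0.03 (exact permutation p = 0.943).

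The signals of A_55_P2121225 were 138942 to 170892 in phenobarbital-fed and 122787 to 165413 in control hCAR/hPXR mice. Those of A_51_P355301 were 104943 to 141624 and 37590 to 62867. No spot was marked saturated, and whether the probes read different transcripts or respond differently to the same RNA was not tested. For Cyp3a13 the difference between its probes moved by 0.26 in CD-1, -0.06 in hCAR/hPXR and 0.14 in C3H mice, and for Cyp3a59 by 0.41, -0.39 and -0.005. None of these 6 passed the exact permutation test, with adjusted p of 0.316 or more.

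**Figure D3:**
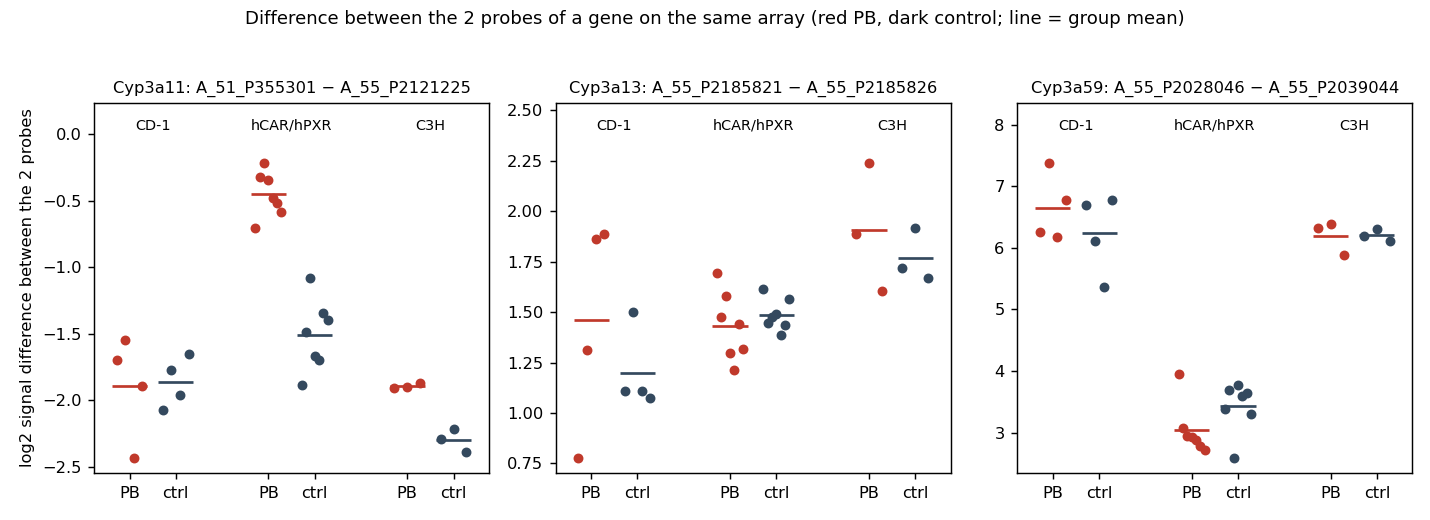
Difference between the 2 probes of Cyp3a11, Cyp3a13 and Cyp3a59 on the same array (y axis, log2), per animal, phenobarbital left of control in each strain, with lines at group means. For Cyp3a11 the hCAR/hPXR animals lie between -0.70 and -0.22 with phenobarbital and between -1.89 and -1.08 in controls.

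Neither Cyp3a11 probe was called in the other strains, although A_55_P2121225 was called in CD-1 mice with normexp (0.58, limma adjusted p = 0.0233). In CD-1 mice A_51_P355301 read 6.07, 7.12, 7.33 and 7.09 with phenobarbital, against 6.87, 6.04, 6.80 and 6.66 in controls (change 0.31, SE 0.33, limma adjusted p = 0.556). A_55_P2121225 read 7.77, 8.67, 9.77 and 8.98, against 8.95, 7.81, 8.75 and 8.31 (change 0.34, SE 0.41, adjusted p = 0.602). Treated animal 1 was the lowest of its group on both probes, and the groups overlapped on both. In C3H mice A_51_P355301 read 8.01, 7.69 and 7.79 with phenobarbital, against 7.64, 7.68 and 7.56, without overlap but not called (change 0.21, SE 0.13, limma adjusted p = 0.313). A_55_P2121225 read 9.92, 9.59 and 9.66, against 9.93, 9.90 and 9.94 (change -0.20, SE 0.13, adjusted p = 0.328).

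On A_51_P355301 the effect of phenobarbital was larger in hCAR/hPXR than in CD-1 mice by 0.92 (SE 0.29, limma adjusted p = 0.0208) and smaller in C3H than in hCAR/hPXR mice by 1.03 (difference -1.03, SE 0.31, adjusted p = 0.0386). The first was lost without CD-1 phenobarbital animal 1 (0.64, adjusted p = 0.0624) and when arrays were scaled to probes detected on all of them (0.47, adjusted p = 0.0856). The second was lost in 13 of the 20 fits that left out 1 animal (adjusted p 0.0517 to 0.106). On A_55_P2121225 the same differences were -0.16 and -0.38 (adjusted p = 0.742 and 0.549). The C3H minus CD-1 differences were -0.11 and -0.54 on A_51_P355301 and A_55_P2121225 (adjusted p = 0.868 and 0.377). On A_55_P2121225 hCAR/hPXR minus CD-1 was called lower when arrays were scaled to probes detected on all of them (-0.61, adjusted p = 0.0372) and with normexp (-0.39, adjusted p = 0.0360). C3H minus CD-1 was called lower on that probe under the same settings, at -0.80 (adjusted p = 0.0412) and -0.52 (adjusted p = 0.0324).

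The A_51_P355301 means ran 9.20 ± 0.22 in hCAR/hPXR phenobarbital, 7.96 ± 0.29 in hCAR/hPXR control, 7.83 ± 0.16 in C3H phenobarbital, 7.62 ± 0.06 in C3H control, 6.90 ± 0.57 in CD-1 phenobarbital and 6.59 ± 0.38 in CD-1 control mice (SD). The A_55_P2121225 means ran 9.92 ± 0.02 in C3H control, 9.72 ± 0.17 in C3H phenobarbital, 9.65 ± 0.15 and 9.47 ± 0.15 in hCAR/hPXR phenobarbital and control, and 8.80 ± 0.83 and 8.45 ± 0.51 in CD-1 phenobarbital and control mice. On this second probe every neighbour in the order overlapped. Differences of control levels against CD-1 mice turned their sign on both probes under another scaling, so no order of strains is read for Cyp3a11.

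Cyp3a25, an adult liver form, went in opposite directions in hCAR/hPXR and C3H mice. In hCAR/hPXR mice the levels were 7.88, 8.15 and 8.24 (lowest, median and highest of 7) with phenobarbital, against 7.17, 7.33 and 7.46 in controls. No treated animal overlapped with a control, and the rise was 0.78 (SE 0.08, 1.72-fold, limma adjusted p = 5.83e-06). In C3H mice the levels were 7.55, 6.88 and 6.73 with phenobarbital, against 8.05, 7.91 and 8.05 in controls. All treated animals lay below all controls, and Cyp3a25 fell by 0.95 (SE 0.22, 1.93-fold lower, limma adjusted p = 0.0405).

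That fall in C3H mice was lost when any of 5 of the 6 animals was left out (adjusted p 0.0951 to 0.130) and held without phenobarbital animal 1. It was also lost with quantile normalization (adjusted p = 0.0524). CD-1 mice had levels of 3.49, 4.21, 4.85 and 3.97 with phenobarbital, against 5.19, 4.46, 4.86 and 4.68 in controls. These overlapped, with a change of -0.67 (SE 0.32, limma adjusted p = 0.203), which was called when all arrays were fitted together (-0.67, adjusted p = 0.0224) and was -0.000611 with normexp.

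The difference of the Cyp3a25 effects was tested directly. It was 1.45 between hCAR/hPXR and CD-1 mice (SE 0.27, limma adjusted p = 0.000473) and -1.73 between C3H and hCAR/hPXR mice (SE 0.29, adjusted p = 0.000287), while C3H minus CD-1 was -0.28 (SE 0.32, adjusted p = 0.585). With normexp this last difference was called (-0.83, adjusted p = 0.00256). Control levels were higher by 2.52 in hCAR/hPXR (SE 0.19, 5.74-fold) and by 3.20 in C3H mice (SE 0.23, 9.22-fold) than in CD-1 mice under every scaling run. The group means were 8.10 ± 0.14 in hCAR/hPXR phenobarbital, 8.00 ± 0.08 in C3H control, 7.32 ± 0.11 in hCAR/hPXR control, 7.05 ± 0.43 in C3H phenobarbital, 4.80 ± 0.31 in CD-1 control and 4.13 ± 0.57 in CD-1 phenobarbital mice (SD). The first pair, the middle pair and the CD-1 pair each overlapped within themselves.

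Hepatocyte markers moved beside these values. Of 5 measured markers (Alb, Apoa1, Ttr, Cps1 and Serpina1e) 2 fell in CD-1 and 3 in C3H mice, and 0 were called in hCAR/hPXR mice. Their mean level per animal was 6.48 to 7.68 with phenobarbital against 7.75 to 8.60 in controls in CD-1 mice, and 7.87 to 9.11 against 9.59 to 9.72 in C3H mice. In hCAR/hPXR mice it was 8.33 to 8.68 against 8.31 to 8.69. The C3H mean leans on Cps1, which averaged 2.76 with phenobarbital against 6.11 in controls. The gap was smaller for each other marker in C3H mice, the widest being Serpina1e (10.86 against 11.60). Albumin fell by 1.97 in CD-1 (limma adjusted p = 0.00577) and by 0.71 in C3H mice (adjusted p = 0.0284), and Ttr fell by 0.56 in C3H mice. The part of hepatocyte RNA in the Cyp3a changes was not tested.

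Cyp3a59 shares most of its printed window with Cyp3a25. With phenobarbital A_55_P2028046 read 7.93, 8.03 and 8.13 (lowest, median and highest of 7) in hCAR/hPXR mice, against 6.34, 7.23 and 7.64 in controls. The groups did not overlap, and the rise was 0.88 (SE 0.15, 1.84-fold, limma adjusted p = 0.000254). A_55_P2039044 read 3.98, 5.19 and 5.25, against 3.46, 3.63 and 4.04. Here the lowest treated animal lay among the controls, and the rise was 1.26 (SE 0.18, 2.40-fold, adjusted p = 7.45e-05).

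In CD-1 mice A_55_P2028046 of Cyp3a59 read 5.72, 6.51, 6.64 and 6.63 with phenobarbital, against 5.95, 5.15, 5.75 and 5.67 in controls. Treated animals 2 to 4 lay above all controls and treated animal 1 among them (change 0.75, SE 0.30, limma adjusted p = 0.139). This probe was called when scaled to probes detected on all arrays (1.01, adjusted p = 0.0131), with normexp (0.55, adjusted p = 0.0281) and in 1 fit of all arrays (0.75, adjusted p = 0.0196). A_55_P2039044 read -0.53, -0.86, 0.46 and -0.14, against -0.74, -0.96, 0.39 and -1.10 (change 0.34, SE 0.38, adjusted p = 0.588). In C3H mice the first probe read 7.56, 7.12 and 6.81 with phenobarbital, against 7.51, 7.62 and 7.43 (change -0.36, SE 0.20, limma adjusted p = 0.258). The second read 1.24, 0.74 and 0.92, against 1.32, 1.31 and 1.33, without overlap (change -0.35, SE 0.16, adjusted p = 0.162). Without C3H phenobarbital animal 1, the highest of its group, both probes passed the threshold, at -0.56 (adjusted p = 0.0421) and -0.49 (adjusted p = 0.0367).

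The Cyp3a59 effect in C3H mice was below that in hCAR/hPXR mice on both probes, by 1.24 (difference -1.24, SE 0.31, limma adjusted p = 0.0130) and by 1.62 (difference -1.62, SE 0.40, adjusted p = 0.0116). With quantile normalization the adjusted p was 0.0629 and 0.331. On A_55_P2028046 the C3H effect was also below the CD-1 effect (difference -1.10, SE 0.35, limma adjusted p = 0.0377). That call was lost in 9 of the 14 fits that left out 1 animal. On A_55_P2039044 the C3H effect was called below the CD-1 effect with normexp (-0.93, adjusted p = 0.0436). The hCAR/hPXR minus CD-1 differences were 0.13 and 0.93 (adjusted p = 0.761 and 0.0656). Of the control levels, those of A_55_P2039044 differed most: 3.71 ± 0.23 in hCAR/hPXR, 1.32 ± 0.01 in C3H and -0.60 ± 0.68 in CD-1 controls (SD). C3H was below hCAR/hPXR (difference -2.39, SE 0.28, 5.25-fold lower) and hCAR/hPXR above CD-1 (4.32, SE 0.26, 19.9-fold) under every scaling run. With phenobarbital the same probe averaged 4.98 ± 0.46 in hCAR/hPXR, 0.96 ± 0.25 in C3H and -0.27 ± 0.57 in CD-1 mice, and only the hCAR/hPXR and the CD-1 groups overlapped with their own controls. On A_55_P2028046 the means ran 8.02 ± 0.07 in hCAR/hPXR phenobarbital, 7.52 ± 0.09 in C3H control, 7.16 ± 0.38 in C3H phenobarbital, 7.14 ± 0.41 in hCAR/hPXR control, 6.38 ± 0.44 in CD-1 phenobarbital and 5.63 ± 0.34 in CD-1 control mice. On that probe the first group alone stood apart from its neighbour.

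Cyp3a13, also an intestinal form, gave like results on both of its probes. In hCAR/hPXR mice A_55_P2185821 read 5.78, 6.17 and 6.66 (lowest, median and highest of 7) with phenobarbital, against 4.76, 5.26 and 5.96 in controls. A_55_P2185826 read 4.08, 4.69 and 5.34, against 3.28, 3.86 and 4.34. The groups overlapped on both, and both rose, by 0.88 (SE 0.18, 1.84-fold, limma adjusted p = 0.00109) and 0.94 (SE 0.21, 1.92-fold, adjusted p = 0.00155). Over the 28 arrays, after the mean of each strain was subtracted, the Pearson correlation between probes was 0.93 for Cyp3a13, 0.58 for Cyp3a11 and 0.70 for Cyp3a59, values that include the treatment effect. After the mean of each group was subtracted it was 0.88, 0.79 and 0.32, so the order of Cyp3a11 and Cyp3a59 turned. Both probes of a pair share each array.

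In CD-1 mice A_55_P2185821 of Cyp3a13 read 1.51, 1.52, 3.39 and 2.02 with phenobarbital, against 1.18, 0.98, 1.61 and -0.33 in controls (change 1.25, SE 0.48, limma adjusted p = 0.124). A_55_P2185826 read 0.73, 0.21, 1.53 and 0.13, against 0.07, -0.52, 0.50 and -1.40 (change 0.99, SE 0.43, adjusted p = 0.163). In 1 fit of all arrays both were called, with the same changes (adjusted p = 0.0129 and 0.0349). Control 4 was the lowest animal on both probes and treated animal 3 the highest, and the groups overlapped. In C3H mice they read 2.60, 2.51 and 2.13 against 2.25, 2.43 and 2.44, and 0.72, 0.28 and 0.53 against 0.53, 0.51 and 0.77. Those groups overlapped too, with changes of 0.04 and -0.10 (SE 0.16 each, limma adjusted p = 0.878 and 0.704). The differences of effects between strains for Cyp3a13 were not called: they were -0.37 and -0.05 for hCAR/hPXR minus CD-1, -1.20 and -1.08 for C3H minus CD-1, and -0.84 and -1.04 for C3H minus hCAR/hPXR (adjusted p of 0.141 or more). On A_55_P2185821, C3H minus CD-1 was called under 3 other settings, at -1.46 when scaled to probes detected on all arrays (adjusted p = 0.0465), -2.06 with quantile normalization (0.0347) and -1.74 with normexp (0.0251).

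Cyp3a13 levels lay far apart between strains. On A_55_P2185821 the means were 6.14 ± 0.34 and 5.26 ± 0.39 in hCAR/hPXR phenobarbital and control, 2.42 ± 0.25 and 2.37 ± 0.11 in C3H, and 2.11 ± 0.89 and 0.86 ± 0.83 in CD-1 mice (SD). On A_55_P2185826 they were 4.71 ± 0.47 and 3.77 ± 0.35 in hCAR/hPXR, 0.51 ± 0.22 and 0.60 ± 0.14 in C3H, and 0.65 ± 0.64 and -0.34 ± 0.82 in CD-1 mice. Both hCAR/hPXR groups lay above the other 4. Of those 4 each overlapped with its neighbour in the order of means, but the CD-1 controls lay below the C3H controls without overlap on both probes. That difference turned its sign when arrays were scaled to probes detected on all of them (C3H minus CD-1 controls -0.361 and -0.932), so it is not read. The hCAR/hPXR controls exceeded the CD-1 controls by 4.40 (SE 0.32, 21.0-fold) and 4.11 (SE 0.30, 17.2-fold), and the C3H controls lay below the hCAR/hPXR controls (differences -2.88, 7.38-fold lower, and -3.16, 8.96-fold lower), under every scaling run. The 6 enterocyte markers Vil1, Fabp2, Lct, Sis, Cdx1 and Cdx2 averaged -3.42 to -2.97 with phenobarbital and -3.54 to -2.71 in control hCAR/hPXR mice, -1.46 to -1.15 and -1.70 to -1.37 in CD-1, and -2.19 to -1.44 and -2.64 to -2.43 in C3H mice. Of these, Vil1, Lct and Cdx2 were not well above background on any hCAR/hPXR array. Fabp2, which was, averaged 4.92 and 5.06 in phenobarbital-fed and control hCAR/hPXR mice, 2.80 and 3.88 in CD-1, and 7.28 and 6.73 in C3H mice, and it was higher in hCAR/hPXR than in CD-1 controls (1.18, limma adjusted p = 0.000688). The part of enterocyte RNA in the Cyp3a13 values was not tested.

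Over the controls, all 9 probes were called higher in hCAR/hPXR than in CD-1 mice, beside 87.9% of all tested probes called, 47.4% higher and 40.5% lower. All 9 were also higher in C3H than in CD-1 controls, beside 88.6% called, 47.6% higher and 41.0% lower. Between C3H and hCAR/hPXR controls 2 were higher and 3 lower, beside 48.5% called, 28.9% higher and 19.6% lower. For the differences of effects, 2 were higher and 1 lower in hCAR/hPXR minus CD-1, beside 26.5% of tested probes called, 18.1% higher and 8.33% lower. C3H minus CD-1 had 0 higher and 2 lower, beside 14.0% called, 8.85% higher and 5.17% lower. C3H minus hCAR/hPXR had 0 higher and 5 lower, beside 9.13% called, 3.92% higher and 5.21% lower. Scaling to the probes detected on all arrays shifted the median of all probes by -1.49 for hCAR/hPXR minus CD-1 controls, -1.87 for C3H minus CD-1 controls and -0.38 for C3H minus hCAR/hPXR controls. It shifted the median effect by 0.26 in CD-1 and -0.19 in hCAR/hPXR mice. Control levels are therefore read only for the differences that held under every scaling. Cyp3a44 in hCAR/hPXR minus CD-1 controls (1.45) is not among them, and its lower bound gave no fold.

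The slides bear on the hCAR/hPXR values. In CD-1 mice each group lay on a slide of its own, so slide and treatment cannot be told apart there, and all C3H arrays shared 1 slide. The hCAR/hPXR controls shared a slide with phenobarbital animal 1, and phenobarbital animals 2 to 7 lay on another. Animal 1 was above all 7 controls for Cyp3a44 (-0.34), Cyp3a11 on A_51_P355301 (8.77), Cyp3a25 (7.88), Cyp3a59 on A_55_P2028046 (7.93) and Cyp3a16 (7.95). It lay within the controls for both Cyp3a13 probes and for the second probes of Cyp3a11 and Cyp3a59. For 8 of the 9 probes, all except Cyp3a16, it was below all 6 other treated animals.

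With slide as a block, which rests on that 1 animal, Cyp3a44 was still called (2.46, limma adjusted p = 0.0428). The other called probes were not: Cyp3a11 on A_51_P355301 0.81 (adjusted p = 0.120), Cyp3a25 0.56 (0.0636), Cyp3a59 0.80 (0.242) and 0.27 (0.606), and Cyp3a13 0.52 (0.558) and 0.32 (0.765). The Cyp2b10 level of that animal was 9.63, which is 4.20 above the control mean, against 4.53 for the mean of the other 6.

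**Figure D4:**
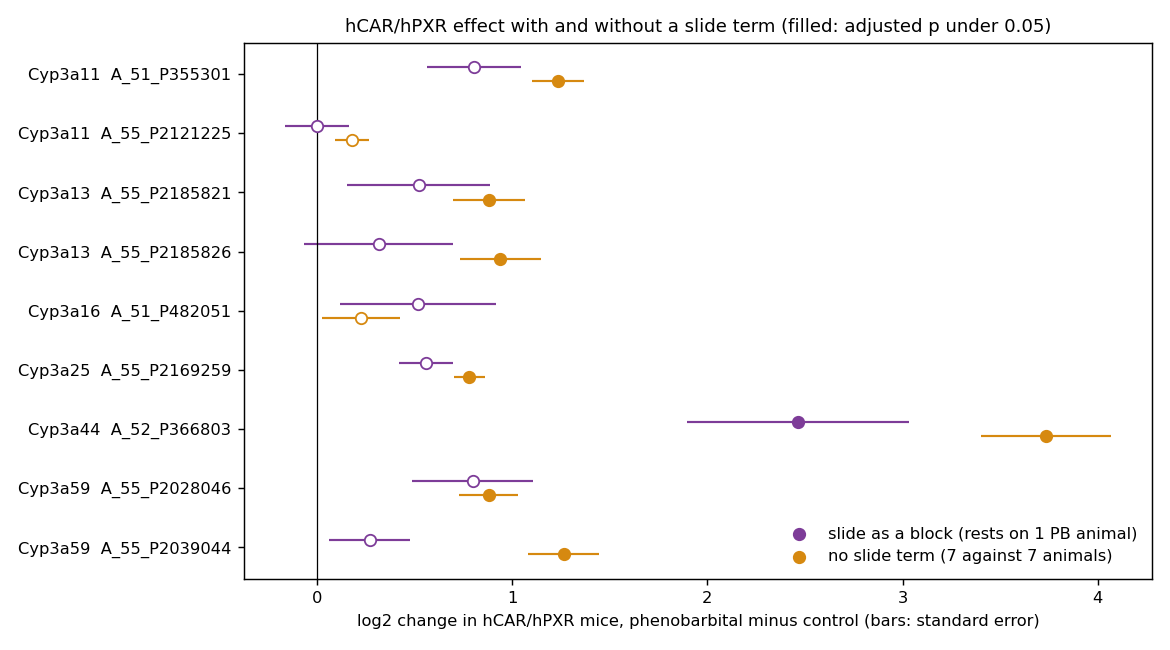
Change of each Cyp3a probe in hCAR/hPXR mice (x axis, log2 phenobarbital minus control, bars are standard errors) without and with slide as a block; filled symbols have an adjusted p under 0.05. Cyp3a44 is filled in both fits (3.74 and 2.46), and the other 6 probes filled without the block are open with it.

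Around the 6 genes, the other Cyp3a genes on the array were Cyp3a41b and Cyp3a57. Both rose in hCAR/hPXR mice, by 0.86 (limma adjusted p = 6.35e-05) and 0.42 (0.00121), beside 33.9% of all tested probes called higher. Phenobarbital animal 1, on the slide of the controls, read 5.90 for Cyp3a41b, within the controls (5.30 to 5.95). For Cyp3a57 that animal read 7.06, above all controls (6.28 to 6.80). Neither gene was called in CD-1 (0.97 and 0.04, adjusted p = 0.134 and 0.933) or C3H mice (0.04 and -0.95, adjusted p = 0.878 and 0.0507).

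Other PXR and CAR target genes were read beside the Cyp3a genes. For this and the lists after it, the shares of all tested probes called higher were 1.81% in CD-1, 33.9% in hCAR/hPXR and 7.21% in C3H mice, and those called lower 6.07%, 22.1% and 6.87%. Of 16 tested, all 16 rose in hCAR/hPXR mice, 8 did in CD-1 and 13 in C3H mice, and 0 fell, with median changes of 1.02, 1.22 and 1.24. Cyp2c55, a P450 of the same drug-induced set, rose by at least 4.89 in CD-1, by 3.30 in hCAR/hPXR and by 4.45 in C3H mice. The aldo-keto reductase gene Akr1b7 rose by at least 2.76 in CD-1 and by 4.62 in hCAR/hPXR mice, and Gsta1, a glutathione transferase, by 3.80 in CD-1 mice. The glutathione transferase Gstm2 rose by 2.68 in hCAR/hPXR and 3.08 in C3H mice, and Gstm1 by 1.32 in C3H mice.

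Of 6 genes for electron and haem supply to P450 enzymes, 2 rose in CD-1, 3 in hCAR/hPXR and 1 in C3H livers, and 0 fell. The 3 of 6 in hCAR/hPXR mice stand beside the 33.9% of all probes. Por, the reductase that passes electrons to P450 enzymes, rose by 2.05, 1.09 and 2.23 in the same order. Alas1, which starts haem synthesis, rose by 1.65 in CD-1 mice, and Pgrmc1 and Cyb5r3 rose by 0.57 and 0.38 in hCAR/hPXR mice. Of PXR, its partner and cofactors, 0 rose and 2 of 13 fell in CD-1 mice (among them Rxra by 0.96). In hCAR/hPXR mice 2 of 12 rose (Rxra 0.54 and Nr1h4 0.50) and 2 fell (Nr1i3 by 0.99 on A_51_P358256, and Ppargc1a by 0.60). The other mouse Nr1i3 probe, A_55_P2035824, read near background there (-5.11 with phenobarbital and -5.50 in controls), and human CAR was not measured. In C3H mice 1 of 13 fell (Nr0b2 by 1.89).

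Sex-biased liver genes were read beside Cyp3a44. Of 9 listed female-biased genes, all on the array, 5 were tested in CD-1, 6 in hCAR/hPXR and 5 in C3H mice. Of the tested genes 4, 5 and 5 rose with phenobarbital, beside 1.81%, 33.9% and 7.21% of all tested probes, and 1 fell in hCAR/hPXR mice. A gene dim in controls was tested only where its phenobarbital group passed the filter. These counts therefore lean to rises and are no share of the 9 listed genes. Cyp2b9, a female-predominant P450, rose by 4.29 (CD-1), 4.90 (hCAR/hPXR) and 5.95 (C3H), and Cyp2a4 by 2.60, 1.69 and 1.98 in the same strains. Cyp2b13 rose by 3.18 in CD-1 and 6.45 in C3H mice. Sult3a1 rose by at least 2.18 in CD-1 and at least 4.96 in hCAR/hPXR mice, and Sult2a1 by at least 6.96 in hCAR/hPXR and at least 2.11 in C3H mice. Of 8 male-biased genes 0 rose, and 2 (CD-1), 5 (hCAR/hPXR) and 3 (C3H) fell, beside 6.07%, 22.1% and 6.87% of all tested probes. Cyp7b1 fell by 1.46 (CD-1), 0.95 (hCAR/hPXR) and 2.14 (C3H), Slco1a1 by 1.71 and 3.06 in CD-1 and hCAR/hPXR mice, Hsd3b5 by 3.75 and 2.41 in hCAR/hPXR and C3H mice, C6 by 0.43 in hCAR/hPXR mice and Elovl3 by 2.64 in C3H mice. Cyp3a44, known as female-predominant, was not called in C3H mice, in which the 5 female-biased genes that were tested, of 9 listed, rose.

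Of 6 growth hormone signalling genes 0 were called in CD-1 and hCAR/hPXR mice, and Ghr and Igf1 fell in C3H mice, by 0.65 and 1.73. Of 5 listed fetal liver genes, none was tested in CD-1 mice, 1 of 2 tested rose in hCAR/hPXR mice (Afp 0.90) and 4 of 4 tested rose in C3H mice (Dlk1 4.60, H19 6.15, Afp 3.77 and Gpc3 at least 3.62). Here too a gene dim in controls was tested only through its phenobarbital group. The probe of Cyp3a16, known as a fetal and neonatal form, had a change of 0.01 in the same C3H livers. Its mean stood at percentile 97.8 of all probes in C3H controls, and whether it also reads RNA of a related Cyp3a gene was not tested. Among markers of other cells in CD-1 mice, 1 of 2 tested neutrophil markers rose, S100a8 by 6.67, and S100a9 was not called. Of 3 tested lymphocyte markers 1 fell, Cd79a by 1.66, and Cd3e and Cd8a were not called. Among hCAR/hPXR mice, 2 of 4 Kupffer cell, 2 of 4 endothelial and 2 of 2 bile duct markers rose, and 1 of 2 lymphocyte markers and 1 of 1 exocrine pancreas marker fell, beside 33.9% of all tested probes higher and 22.1% lower. In C3H mice 1 of 4 endothelial markers rose, 1 bile duct marker rose and 1 fell, and 1 of 1 exocrine pancreas marker fell. No enterocyte marker was called in any strain. Their part in the Cyp3a values was not tested.

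The genes whose levels ran most alike with each Cyp3a gene were ranked by Pearson correlation over 28 strain-centred arrays, among 8196 genes well above background on all of them. The correlations are descriptions, since both genes of a pair share each array's RNA, scaling and treatment. For Cyp3a25 they were Ybx1 (0.94), Cyp2j8 (0.92) and Sqor (0.92). For Cyp3a11 on A_55_P2121225 they were Bsdc1 (0.92), Golga7 (0.87) and Pomp (0.87), and for Cyp3a59 on A_55_P2028046 Fam32a (0.87), Cyp3a41b (0.87) and Sulf2 (0.85). Cyp3a16 ran most like Gm6607 (0.83), Tvp23b (0.78) and Dera (0.76), and Cyp3a13 on A_55_P2185821 like Znrd1 (0.79), Prelid2 (0.78) and Tm6sf2 (0.77). Cyp3a44 was not ranked, because it was not well above background on every array. The only Cyp3a gene among these 15 nearest genes was Cyp3a41b, beside Cyp3a59.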

How the data were processed

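Each of 28 livers gave 1 Agilent array, labelled in 1 colour. Per the file headers, the deposited scanner files hold intensity values from Agilent Feature Extraction 10.7.3.1, background-subtracted and detrended within each array. A second deposited file, the value table, has log2 values from which the authors had taken each array's 75th percentile, as found by setting each column against its scanner file (55681 of 55821 entries matched); it served as an alternative.

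Here, outlier-marked spots were left out (639 probe values missing), no spot was saturated, and each array's log2 processed signals were lowered by their own 75th percentile over 55681 non-control probes. RefSeq accessions were matched, without versions, to the GRCm38.p6 gene table, which named 26582 probes and left 29099 without a symbol. A probe was tested where the scanner software marked it well above background on every array of at least 1 group. Groups of a strain were compared with limma 3.58.1 in R 4.3.3 (lmFit, eBayes, two-sided; residual degrees of freedom were 6 for CD-1, 12 for hCAR/hPXR and 4 for C3H). Differences of effects and control levels came from 1 fit of all 28 arrays (22 residual degrees of freedom). The Benjamini-Hochberg adjustment ran over all tested probes, with a threshold of 0.05. Differences between the paired probes of a gene were compared by exact two-sided permutation tests, chosen after seeing the data. The fits were checked on simulated data.

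Named were every Cyp3a member probe, Cyp2b10, Nr1i2 and Nr1i3, and up to 4 called genes of each list with the smallest adjusted p. The lists were the other Cyp3a genes, PXR with its partner and cofactors, P450 electron and haem supply, other PXR and CAR target genes, female-biased and male-biased liver genes, growth hormone signalling, fetal liver genes, and markers of hepatocytes, enterocytes, exocrine pancreas, Kupffer cells, endothelial cells, bile duct cells, lymphocytes and neutrophils. Members, lists and tests were chosen with earlier results of these data known. Alternatives were other scalings, background correction, the value table, other filters, slide and replicate blocks, 1 fit of all arrays, 1 probe per gene and leaving out each animal. The number of animals limits the precision.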

Additional observations from a re-analysis of the deposited data

Results flagged for a closer look

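Of 36 sets of animals large enough to look at (9 Cyp3a probes in the 4 groups of CD-1 and hCAR/hPXR mice), 2 held an animal whose gap to its nearest neighbour was large for the range of its group. Chance gives this in about 5% of groups. On Cyp3a59 A_55_P2028046, CD-1 phenobarbital animal 1 was at 5.72, the nearest other animal at 6.51, and the gap took 0.855 of the range, against a limit of 0.829 for 4 animals. On Cyp3a59 A_55_P2039044, hCAR/hPXR phenobarbital animal 1 was at 3.98, the nearest other at 4.87, with a gap of 0.702 of the range against a limit of 0.568 for 7 animals. That second animal is the 1 treated animal on the slide of the controls.

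The phenobarbital effect differed between strains, by the limma interaction test, in 10 cases, with 9 probes tested in each comparison. Of all tested probes, 26.5% were called in hCAR/hPXR minus CD-1, 14.0% in C3H minus CD-1 and 9.13% in C3H minus hCAR/hPXR. Between hCAR/hPXR and CD-1 mice the difference was 0.92 for Cyp3a11 (A_51_P355301), 1.45 for Cyp3a25 and -0.84 for Cyp3a16. Between C3H and CD-1 mice it was -2.58 for Cyp3a44 and -1.10 for Cyp3a59 (A_55_P2028046). The Cyp3a44 value rests on CD-1 controls not well above background on any array, against which the CD-1 rise is only at least 1.97-fold, and with normexp it was -0.36 (adjusted p = 0.434). Between C3H and hCAR/hPXR mice it was -1.03 for Cyp3a11 (A_51_P355301), -1.73 for Cyp3a25, -3.82 for Cyp3a44, and -1.24 (A_55_P2028046) and -1.62 (A_55_P2039044) for Cyp3a59. All 5 C3H minus hCAR/hPXR differences were below 0. Some calls were lost in fits that left out 1 animal. For hCAR/hPXR minus CD-1 these were 15 of 22 fits for Cyp3a16 and 1 of 22 for Cyp3a11. For C3H minus CD-1 they were 9 of 14 for Cyp3a59. For C3H minus hCAR/hPXR they were 13 of 20 for Cyp3a11 and 1 of 20 for Cyp3a59 (A_55_P2028046). Strain, dose, duration, diethylnitrosamine and slide cannot be told apart in these differences.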

How the results depend on the processing

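Over single probes and comparisons, settings other than leaving out an animal gave 422 results with the same direction and call, 35 that lost a call, 26 that gained one and 29 with another sign. Leaving out an animal gave 922, 52, 13 and 21. The cause of a change was not tested unless fewer probes or animals give it. Of the Cyp3a probes called, CD-1 had 2, and 1 with no filter, 1 with both groups required above background (Cyp3a44 then untested), 1 with the replicate block and 6 in 1 fit of all arrays. The 7 of hCAR/hPXR became 1 with slide as a block and 4 with 1 probe per gene, and the 1 of C3H became 0 with quantile normalization, no filter or the replicate block. For differences of effects, the 3 of hCAR/hPXR minus CD-1 became 5 with normexp. The 2 of C3H minus CD-1 became 5 when scaled to probes detected on all arrays, 4 with quantile normalization, 6 with normexp and 1 with no filter. The 5 of C3H minus hCAR/hPXR became 3 with quantile normalization. The 9 of C3H minus CD-1 controls, all higher, became 5 with normexp. Those 5 include Cyp3a11 A_51_P355301, which was then called lower (-1.01, limma adjusted p = 1.98e-06). Scaled to probes detected on all arrays, that probe (-0.841), Cyp3a11 A_55_P2121225 (-0.405) and Cyp3a13 A_55_P2185826 (-0.932) were called lower there. The same scaling called Cyp3a11 A_55_P2121225 lower in hCAR/hPXR minus CD-1 controls (-0.471, adjusted p = 0.00503). Leaving out 1 animal gave 1 to 2 in CD-1 (1 without control 2, 3 or 4 or treated 2, 3 or 4), 7 to 8 in hCAR/hPXR and 0 to 3 in C3H mice (3 without treated 1, 0 without any other). It gave 2 to 5 for hCAR/hPXR minus CD-1 effects (5 without hCAR/hPXR treated 1), 1 to 3 for C3H minus CD-1 (1 without CD-1 control 2, CD-1 treated 2, 3 or 4, any C3H control, or C3H treated 2 or 3) and 3 to 5 for C3H minus hCAR/hPXR (3 without C3H treated 3). Over all probes, called counts ranged from 1193 to 8168 in CD-1 (2536 as reported), 507 to 15254 in hCAR/hPXR (14518, the 507 with slide as a block) and 655 to 6476 in C3H mice (3262).

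Signs turned as follows. Scaled to probes detected on all arrays, Cyp3a11 A_55_P2121225 in hCAR/hPXR mice was -0.00714, the hCAR/hPXR minus CD-1 effect of Cyp3a59 A_55_P2028046 -0.315, and hCAR/hPXR minus CD-1 controls -0.117 and -0.471 (Cyp3a11 A_51_P355301, A_55_P2121225) and -0.040 (Cyp3a44). C3H minus CD-1 controls were -0.841 and -0.405 (Cyp3a11, same order) and -0.361 and -0.932 (Cyp3a13 A_55_P2185821, A_55_P2185826), and C3H minus hCAR/hPXR controls -6.26e-05 (Cyp3a59 A_55_P2028046). With quantile normalization and with normexp, Cyp3a16 in hCAR/hPXR mice was -0.013 and -0.041, and in C3H mice Cyp3a11 A_55_P2121225 was 0.085 and 0.066 and Cyp3a13 A_55_P2185821 -0.00895 and -0.0472. C3H minus hCAR/hPXR effects were 0.135 and 0.136 for Cyp3a16, and their controls -0.515 and -0.344 for Cyp3a11 A_55_P2121225 and -0.268 and -0.197 for Cyp3a59 A_55_P2028046. C3H minus CD-1 controls were -0.912 and -1.01 for Cyp3a11 A_51_P355301 and -0.147 and -0.150 for Cyp3a59 A_55_P2028046. Quantile normalization alone gave -0.144 for the hCAR/hPXR minus CD-1 effect of Cyp3a59 A_55_P2028046 and 0.074 for the C3H minus hCAR/hPXR effect of Cyp3a11 A_55_P2121225, and normexp alone 0.00348 for Cyp3a44 in C3H mice.

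Leaving out 1 animal turned the sign of some small values, whose ranges over the animals left out were as follows. In C3H mice Cyp3a13 A_55_P2185821 ranged from -0.0505 to 0.185, A_55_P2185826 from -0.203 to 0.0185, Cyp3a16 from -0.0106 to 0.0324 and Cyp3a44 from -0.593 to 0.268. The hCAR/hPXR minus CD-1 effect ranged from -0.507 to 0.159 for Cyp3a11 A_55_P2121225, -0.613 to 0.0623 for Cyp3a13 A_55_P2185821, -0.324 to 0.307 for Cyp3a13 A_55_P2185826 and -0.0853 to 0.295 for Cyp3a59 A_55_P2028046. The C3H minus CD-1 effect of Cyp3a11 A_51_P355301 ranged from -0.384 to 0.0784.

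Same-numbered animals were not paired by any label. Correlations of their deviations were -0.45 to 0.19 in CD-1, -0.14 to 0.27 in hCAR/hPXR and 0.09 to 0.20 in C3H mice, over 0.1 in 1 of 4, 2 of 7 and 2 of 3 pairs. All 3 C3H pairs, but 0 CD-1 and 2 hCAR/hPXR pairs, correlated best with their own number, a hint from the data only. With the replicate block Cyp3a16 in CD-1 had an adjusted p of 0.107 and Cyp3a25 in C3H mice of 0.0604. Few animals and signals near background, as for Cyp3a44 in CD-1 controls, limit what can be read.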
